A study of Mus musculus with 12 samples.

Results

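Transcripts of 10 heat shock chaperone genes were examined in PDGFRα+ mesenchymal cells sorted from mouse skeletal muscle and bone. The genes were Hspa1a, Hspa1b, Hspa8, Hsp90aa1, Hsp90ab1, Dnajb1, Hsph1, Hspb1, Hspd1 and Hspe1, taken by name, and all 10 were found among the 25655 genes of each tissue's table. The study compared controls with conditional knockouts of Esr1, the gene of estrogen receptor alpha, in 4 groups of 3 samples, and it sought genes under the control of Esr1 in the muscle cells that bear on bone metabolism. Libraries covered the 3' ends of polyadenylated RNA. The series title says that the mice were female, and the labels give no age and no tamoxifen schedule.

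Both knockout groups had the genotype PDGFRα-CreER;Esr1flox/flox, in which an inducible Cre is driven by the PDGFRα gene's own regulatory sequence and both Esr1 alleles are floxed. Muscle control replicates 1 and 2 carried PDGFRα-CreER alone, and replicate 3 carried PDGFRα-CreER;Esr1flox/+. Bone control replicate 1 was Esr1flox/flox and lacked the Cre, and replicates 2 and 3 carried PDGFRα-CreER alone. Muscle cells were negative for CD45, CD31 and Vcam1. Bone cells were negative for CD45 and CD31. The labels do not say that the samples of a group came from separate animals, so a p measures the spread among these samples alone, which may be technical.

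Heat shock proteins are molecular chaperones that hold unfolded proteins, help them to fold, or pass them on for degradation. HSP70 proteins bind short hydrophobic stretches in a cycle of ATP use that J-domain proteins start and HSP110 proteins reset, and HSP90 proteins finish the folding of clients such as kinases and steroid receptors, estrogen receptor alpha among them. Transcription of the inducible members rises when heat shock factor 1 binds heat shock elements, which are alternating GAA and TTC units, in their promoters. In freshly sorted cells, tissue digestion is a known trigger of this response.

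The promoters of the members show how far they share that element, and 5 stretches are printed for this reason. RefSeq windows on GRCm38.p6, from 250 bases before a transcript start to 50 after it, matched 7 of the 10 members; Hspa8, Hsp90aa1 and Hsp90ab1 had none. A 2-unit element was searched as GAANNTTC or TTCNNGAA, and each of these reads the same on both strands. It occurred in 6 of the 7 members with a window, all but Dnajb1, and in 17.0% of all 27025 genes with a window. A 3-unit element, GAANNTTCNNGAA or its reverse complement TTCNNGAANNTTC, which always overlaps 2-unit matches, occurred in 3 members (Hspd1, Hspe1 and Hsph1) and in 0.662% of all genes. The estrogen response element GGTCANNNTGACC, which reads the same on both strands, was in no member's window and in 0.0740% of all genes. CCAAT boxes, read on both strands as CCAAT or ATTGG, were in 5 members and in 41.1% of all genes. A match is a run of letters and not a shown binding site. Only exact letters were searched, so a window without a match is not shown to lack a site.

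Capitals below mark heat shock elements. Hspa1a and Hspa1b lie 9951 bases apart on the minus strand of chromosome 17 and encode the inducible cytosolic HSP70. Their upstream stretches, chr17:34972207-34972366 and chr17:34959289-34959448, each 160 bases from 210 to 51 bases before the start, are shown because they are nearly the same. Counted in bases before the start, they differ by C207T and T204C, with the Hspa1a base first.
Hspa1a: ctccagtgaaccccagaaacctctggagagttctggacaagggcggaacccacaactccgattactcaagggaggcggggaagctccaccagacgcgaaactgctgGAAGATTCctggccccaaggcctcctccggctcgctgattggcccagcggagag
Hspa1b: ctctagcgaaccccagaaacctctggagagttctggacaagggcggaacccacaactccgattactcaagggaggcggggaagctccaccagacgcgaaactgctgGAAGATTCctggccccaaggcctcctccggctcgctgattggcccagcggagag

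Hspe1 and Hspd1 are transcribed away from each other on chromosome 1, and a window of Hspd1 shares 285 bases with that of Hspe1. The Hspe1 stretch (chr1:55088053-55088082, plus strand, 95 to 66 bases before the start) holds the overlapping 3-unit elements that both genes share. The Hspb1 stretch (chr5:135887789-135887848, plus strand, 130 to 71 bases before the start) holds a pair of 2-unit elements. The Hsph1 stretch (chr5:149636352-149636381, minus strand, 66 to 37 bases before the second start) holds a single 2-unit element; its 3-unit match begins 15 bases after that start.
Hspe1: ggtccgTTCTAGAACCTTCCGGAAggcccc
Hspb1: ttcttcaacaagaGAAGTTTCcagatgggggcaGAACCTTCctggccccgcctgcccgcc
Hsph1: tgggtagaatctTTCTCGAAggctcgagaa

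**Figure D1:**
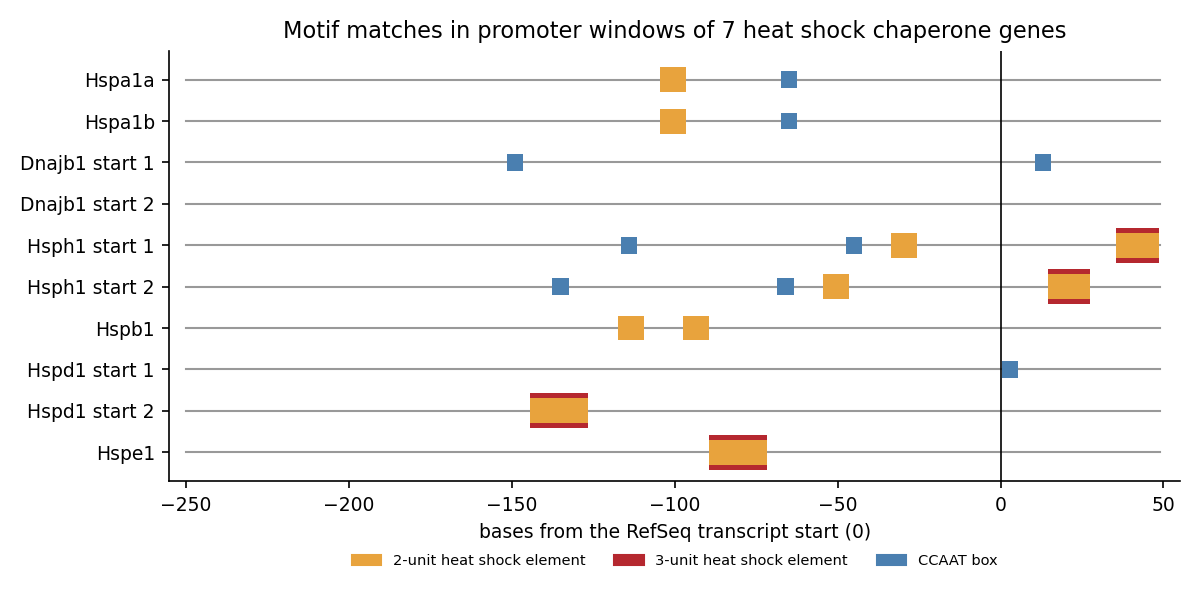
Matches to 3 motifs in the promoter windows of 7 members, with the distance in bases from the RefSeq transcript start on the x axis and 1 line per annotated start. Orange boxes are 2-unit heat shock elements, red boxes 3-unit elements (drawn behind the 2-unit matches they contain) and blue boxes CCAAT boxes. Hspa1a and Hspa1b carry the same matches at the same distances, and the windows of Dnajb1 hold no exact match to the heat shock elements searched.

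The authors' deposited table of a tissue has columns for the log2 fold change of knockout over control, a p, a false discovery rate (FDR) and the larger of the 2 group means, whose unit its header does not name. Of the 25655 genes, 13158 had a p in muscle and 10518 in bone. An FDR was given for 7107 and 8534 of them. Values of single libraries sit under laboratory codes that match no label, so they were not used, and per-sample values and depths are not given here. The 95% intervals below were computed from the standard error that a two-sided normal test would need to reach the deposited p. They describe the deposited result and are not measured from replicates. Each tissue has its own table, and the sources used here do not say how levels were normalised. Levels are therefore not compared between tissues.

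Marker genes described the sorted cells. In the authors' deposited table for muscle, Pdgfra had a group mean of 494, and 15 mesenchymal markers ranged from 11.5 to 13437. For bone, the authors' deposited table gave Pdgfra 8.60, and the same 15 markers ranged from 1.70 to 1121, with Cxcl12 the highest. Of these 15, 11 had positive and 4 negative fold changes in bone, and none passed FDR 0.05. Over all bone genes with a p, 69.7% were positive, and the bone sign counts below stand beside that share. The alpha globin gene Hba-a2 had 263063 in bone, and the neutrophil gene S100a8 had 6106. Of 8 neutrophil markers in bone, all 8 had positive fold changes in the authors' deposited table, 1 (Ltf) passed FDR 0.05, and their group means ran from 40.3 to 6106. The 4 globin genes and Alas2, 5 erythroid markers in all, were positive in bone and none passed, with group means from 2275 to 263063. Of 8 leukocyte and macrophage markers in bone, 7 were positive and none passed, with group means from 5.93 to 1399 in the authors' deposited table. In muscle these 5 erythroid markers were all negative, none passing, with group means up to 1607, while 14 of 15 mesenchymal markers were positive and 1 (Col1a2) passed. Over all muscle genes with a p, 53.5% were positive. Within muscle, the larger group means summed to 56.5 for endothelial, 1.87 for B cell and 216 for myofibre and satellite cell markers. Within bone, these sums were 0.555, 24.1 and 74.5, in the authors' deposited tables. Each sum adds the larger of 2 group means gene by gene, so it belongs to no single group. The sums are not compared between tissues. Of that last sum, Vcam1, which is not specific to muscle, gave 55.9 in the authors' deposited table for bone, where 6 of the 12 markers, Pax7 and Ckm among them, were listed at 0. Of the 216 within muscle, Vcam1 gave 53.7, the highest of these 12 markers there, although the muscle cells were sorted as negative for Vcam1. Neither sum is therefore a measure of myofibres alone. The part of these cell types in the chaperone values was not tested, and in bulk RNA fewer cells of a type and less RNA per cell cannot be told apart. Esr1 itself did not pass in either tissue: the authors' deposited tables list log2 fold changes of 1.02 (p = 0.404) for muscle and -2.69 (p = 0.245) for bone. A tag at the 3' end need not lie in the floxed part, so these values do not check the genotypes.

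No chaperone transcript passed in muscle. At an FDR under 0.05 in the authors' deposited table, 0 of the 10 members were called, beside 0.127% of all 7107 genes with an FDR (9 genes). At FDR 0.1 the members' count was 0 beside 0.183%, and at an unadjusted p under 0.05 it was 0 beside 11.7% of 13158 genes with a p. Only these deposited statistics were available, and no source used here names the tool behind them. The members' median log2 fold change was -0.07, with 4 positive and 6 negative, beside a median of 0.12 over all genes with a p. Their values ran from -0.67 to 0.59, a narrow span beside the quartiles of all genes (-0.91 and 1.51), which includes many genes at low levels. Among the 1615 genes with a group mean of at least 100, where 8 of the members lie, the quartiles were -0.35 and 0.41. Hspe1 (-0.67) and Hspa1a (-0.36) lay below the lower one and Hspa1b (0.59) above the upper one. The other members at that level lay between them, so the span is not narrow for genes of like level.

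Hspa8 and both HSP90 genes had the fold changes nearest to 0 in muscle. Hspa8 (ENSMUSG00000015656, chromosome 9, 40800984 to 40810087, plus strand) encodes HSC70, the housekeeping HSP70 that also uncoats clathrin vesicles. Its group mean was 1176 and its log2 fold change 0.03 (p = 0.927) in the authors' deposited table, with an interval of -0.53 to 0.58. Hsp90ab1 (ENSMUSG00000023944, chromosome 17, 45567775 to 45573271, minus strand), the constitutive HSP90, had the members' highest group mean, 1654, and 0.07 (p = 0.809) in the authors' deposited table, with an interval of -0.50 to 0.64. For Hsp90aa1 (ENSMUSG00000021270, chromosome 12, 110690605 to 110702728, minus strand), the inducible HSP90, the authors' deposited table gave -0.03 (p = 0.916) at a group mean of 1006. Its interval was -0.61 to 0.55. These were the 3 members whose intervals lay wholly within 1 log2 unit of 0.

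The inducible HSP70 pair had opposite signs in muscle, and neither passed. Hspa1b (ENSMUSG00000090877, chromosome 17, 34956436 to 34959238, 1 exon) had a group mean of 238 and a fold change of 0.59 on the log2 scale (p = 0.175, FDR = 1.00), per the authors' deposited table. Hspa1a (ENSMUSG00000091971, chromosome 17, 34969190 to 34972156, 1 exon) had -0.36 (p = 0.459) at 163 in the authors' deposited table. Their intervals, -0.26 to 1.44 and -1.30 to 0.59, overlap, and the difference between the genes was not tested.

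The partners of HSP70 did not pass in muscle either. Dnajb1 (ENSMUSG00000005483, chromosome 8, 83608193 to 83612653, plus strand) encodes the inducible J-domain protein HSP40, which delivers clients to HSP70. It had 0.30 (p = 0.484) at a group mean of 286 in the authors' deposited table, with an interval of -0.54 to 1.14. Hsph1 (ENSMUSG00000029657, chromosome 5, 149614287 to 149636376, minus strand) encodes an HSP110 that exchanges nucleotide on HSP70. It had the lowest group mean of the members, 33.6, and -0.48 (p = 0.744) in the authors' deposited table, with a wide interval of -3.36 to 2.40. Hspb1 (ENSMUSG00000004951, chromosome 5, 135887919 to 135889563, plus strand), a small heat shock protein that binds unfolding clients without ATP, had -0.31 (p = 0.459) at 244 in the authors' deposited table.

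Of the mitochondrial pair, Hspe1 held the members' smallest p in muscle, and Hspd1 did not come near it. Hspe1 (ENSMUSG00000073676, chromosome 1, 55088132 to 55091307, plus strand) encodes HSP10, the lid of the mitochondrial folding chamber. For Hspe1 the authors' deposited table lists a group mean of 439 and a log2 fold change of -0.67, or 1.59-fold lower (p = 0.0960, FDR = 0.969). The interval of -1.46 to 0.12 includes 0. Hspd1 (ENSMUSG00000025980, chromosome 1, 55077835 to 55088243, minus strand) encodes HSP60, the chamber itself, and starts beside Hspe1. The authors' deposited table gave Hspd1 -0.11 (p = 0.863) at 94.5, with an interval of -1.33 to 1.11.

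**Figure D2:**
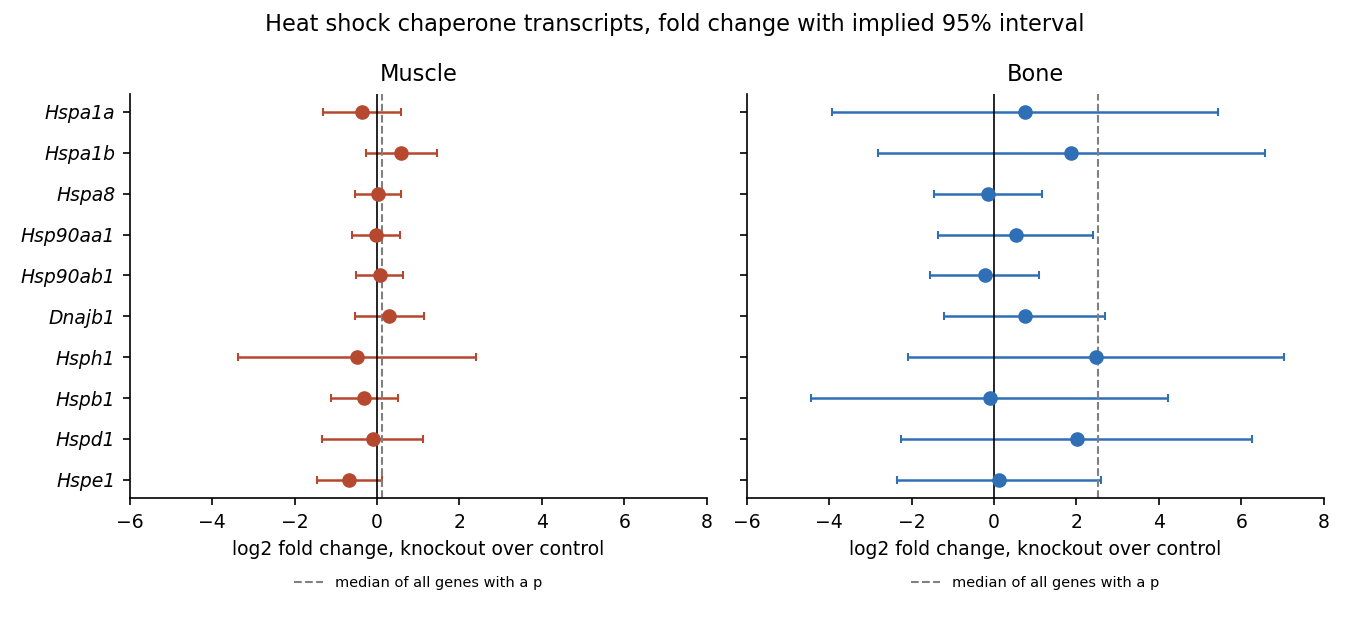
Log2 fold change of knockout over control for the 10 members in muscle (left) and bone (right), with points for the deposited values and bars for the 95% interval implied by the deposited p. All 10 intervals include 0 in each tissue, and the bone intervals are wider; the dashed lines are the medians of all genes with a p, 0.12 in muscle and 2.51 in bone.

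For scale, the 4 muscle genes called at a group mean of at least 100 had absolute log2 fold changes of at least 1.23 in the authors' deposited table. The implied standard errors of the members in muscle ran from 0.28 to 1.47. A change of smaller size in a member may therefore have been missed, and a p that misses the threshold does not show that the groups were alike.

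In bone, 0 of the 10 members were called at FDR 0.05 in the authors' deposited table, beside 0.0352% of 8534 genes with an FDR (3 genes). The looser rules called many bone genes and none of the 10 members. At FDR 0.1 the members' count was 0 beside 32.2%, and at an unadjusted p under 0.05 it was 0 beside 33% of 10518 genes with a p. That share depended on level: it was 40.0% below a group mean of 10, 34.0% from 10 to under 50, 9.84% from 50 to under 100 and 5.56% at 100 or more. The members had 1, 4, 0 and 5 genes in these ranges. Their median log2 fold change was 0.63, with 7 positive and 3 negative, beside a median of 2.51 and 69.7% positive over all genes with a p. That median was 0.32 without Hspa1a and Hspa1b, and 0.00389 after the median of genes of like level was subtracted from each member. Genes of like level were those in the same decile of the larger group mean, which is not independent of the fold change. The subtracted values spread widely, from -4.71 for Hsph1 to 2.06 for Hspd1, so their median does not show that each member matched its level.

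In bone, 5 members had a group mean of at least 100. Hsp90ab1 had -0.23 (p = 0.733) at 704 in the authors' deposited table, and Hspa8 had -0.14 (p = 0.831) at 662. Their intervals were -1.56 to 1.09 and -1.46 to 1.17. Hsp90aa1 had 0.53 (p = 0.582) at 182, Dnajb1 had 0.74 (p = 0.461) at 132 and Hspe1 had 0.12 (p = 0.926) at 118 in the authors' deposited table. Among all 738 bone genes at such levels the quartiles were -0.70 and 0.57, so Dnajb1 lay above the upper one and the other four between them.

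The remaining bone members were low and their values imprecise. Hspa1a and Hspa1b, at group means of 11.2 and 11.3, had 0.75 (p = 0.755) and 1.87 (p = 0.435) in the authors' deposited table. The intervals of this pair, -3.94 to 5.44 and -2.82 to 6.57, again overlap. Hspd1 had 2.01 (p = 0.355) at 35.9, Hspb1 had -0.11 (p = 0.962) at 46.6 and Hsph1 had 2.48 (p = 0.287) at 3.44 in the authors' deposited table. For Hsph1, the lowest of them, the authors' deposited table puts this at 5.57-fold higher, and the interval runs from -2.08 to 7.04 on the log2 scale. Bone genes with a group mean under 10 had a median of 4.99, and 84.3% of them were positive, so the positive value of Hsph1 is the common sign at its level. The value of Hsph1 itself, 2.48, lay below the median of 7.19 for genes in its decile of group mean. Implied standard errors in bone ran from 0.67 to 2.40, and no member's interval lay within 1 log2 unit of 0.

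**Figure D3:**
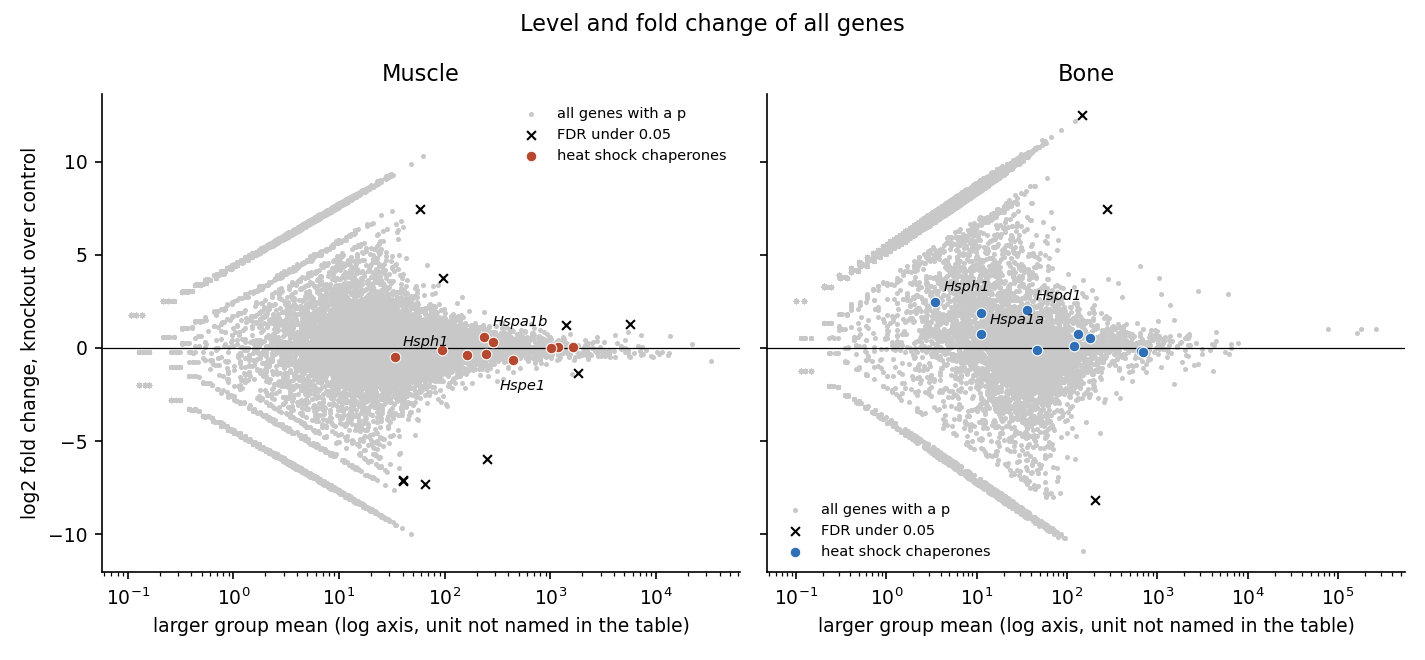
Larger group mean (log axis, unit not named in the table) against the log2 fold change of knockout over control for all genes with a p in muscle (left) and bone (right); coloured points are the 10 members and crosses the genes at FDR under 0.05. The members lie inside the cloud of genes in both panels, from a group mean of 33.6 to 1654 in muscle and from 3.44 to 704 in bone, and none is a cross.

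The order of the members by level was alike at the top in both tissues. The group mean is not stated to be corrected for length, and a 3' library gives tags per transcript end, so these are orders within a table and not ratios of molecules. Hsp90ab1 and Hspa8 were the highest of the 10 in muscle and in bone, and Hsph1 was the lowest in both. Hsp90ab1 exceeded 99.3% of muscle genes with a p. Hspa1b exceeded 94.8% of muscle genes and 54.4% of bone genes, and Hspa1a exceeded 92.5% and 54.2%. Whether neighbours in these orders differ beyond their spread was not tested, since a spread over samples could not be computed.

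The effects in the 2 tissues were set against each other member by member, as the difference of the deposited log2 fold changes with the interval that both implied standard errors give. The 2 comparisons share no library. All 10 intervals of the difference include 0. At the same width, the interval left out 0 for 24.6% of the 9598 genes with a p in both tables, and no gene passed once this was adjusted over all of them by the Benjamini-Hochberg method. The interval is a two-sided normal approximation, and an exact test would need values of single samples. The sign differed between tissues in 7 of the 10 members. The share over all genes was not computed, so this count cannot be read as a trait of the members. Over all genes with a p, 53.5% were positive in muscle and 69.7% in bone. All 10 members' own intervals include 0 in each tissue, so these signs are uncertain. Hsph1 had the largest difference of muscle minus bone, -2.96, with an interval of -8.35 to 2.44. Hspa8 had the narrowest interval, -1.26 to 1.59, around a difference of 0.17. For Hsp90ab1 the difference was 0.30, with an interval of -1.14 to 1.74.

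Because the libraries read transcript ends, the last 300 bases of each member's longest coding transcript in GENCODE M21 were searched for 50-base windows that occur in another gene's transcript. Hspa1a and Hspa1b shared no such window with each other or with any gene. Upstream of the end they are nearly the same, with 99.3% identity over 2197 aligned bases (16 differences). Hspa8 shared 67.3% of its windows with 10 processed pseudogenes, and Gm15459 and Gm8355 each held 66.9%. Hspe1 shared 43.8% with 3 processed pseudogenes and the coding model AC117239.2, and Hspb1 shared 19.1% with the pseudogene Hsp25-ps1. None of these copies is listed in the authors' deposited tables, so no count on a copy could be seen. Whether reads of these 3 genes were split among copies was not tested, and no source used here says how such reads were counted. The other 7 members shared none. Hspa1a also overlaps 2225 bases of Gm20481 on the opposite strand, for which the authors' deposited tables list group means of 4.32 for muscle and 0 for bone. Reads of the 2 genes can be told apart only if strand was used in counting, which is not stated.

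**Figure D4:**
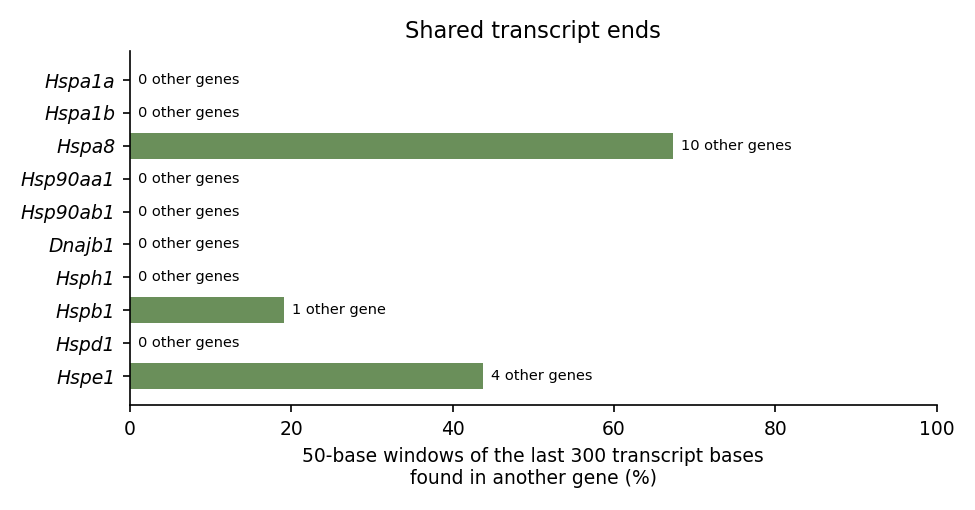
Share of 50-base windows in the last 300 transcript bases of each member that also occur in a transcript of another gene, in percent, with the number of such genes beside each bar. Hspa8, Hspe1 and Hspb1 share 67.3%, 43.8% and 19.1%, and the other 7 members share none.

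The wider chaperone machinery and bordering stress responses were read through 11 lists with 146 entries, 23 of them immediate-early and 12 oxidative stress genes. All were present in the tables, and 0 list genes passed FDR 0.05 in either of the authors' deposited tables. At an unadjusted p under 0.05 in muscle, 4 list genes were higher and 5 lower of 139 with a p (6.47%, beside 11.7% of all genes). In bone, 33 were higher and 2 lower of 132 (26.5%, beside 33% of all genes). By direction, 6.41% of all muscle genes with a p were higher and 5.31% lower at that threshold. For bone these shares were 28.8% higher and 4.2% lower, so mostly positive counts in the bone lists below follow the direction of all genes.

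Of 5 heat shock factors and regulators, none reached p 0.05 in either tissue. Hsf1, the master regulator, had -0.37 (p = 0.834) at a muscle group mean of 19.0 by the authors' deposited table, and Hsf1, Hsf4 and Hsf5 were listed at 0 in bone. Hsf2, a related factor, had -2.50 (p = 0.113) at 48.8 in muscle in the authors' deposited table. For Hsbp1, which encodes an HSF1-binding protein, the authors' deposited tables give -0.38 (p = 0.456) for muscle and 0.20 (p = 0.926) for bone.

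The partners of cytosolic HSP70 and HSP90 were tested beside the members. Of 16 HSP90 co-chaperone genes in muscle, 16 had an FDR, none passed and none reached p 0.05, with a median of 0.08. In bone 15 had a p, 5 were higher at p under 0.05 and the median was 2.50, beside 2.51 for all genes. Chordc1, Fkbp8, Ppid and Fkbp4 had the smallest p there, with 9.69, 9.40, 8.67 and 6.08 at group means of 21.9, 14.9, 11.8 and 13.2 and an FDR of 0.0784 each, per the authors' deposited table. Of 8 HSP70 nucleotide exchange and co-chaperone genes, 0 reached p 0.05 in muscle. Bag3, the stress-induced BAG protein that couples HSP70 to autophagy, had -0.00 (p = 0.993) at 672 in muscle and 9.33 (p = 0.00373, FDR = 0.0784) at 16.3 in bone, by the authors' deposited tables. Bone fold changes of this size at such low levels are fitted values and not estimates of size.

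Among 17 J-domain genes, 16 had a p in muscle, where 1 was higher and 1 lower at p under 0.05. In bone 15 had a p, and 3 were higher and none lower. Dnaja4 was the member of smallest p in both, with 7.58 (p = 0.0201) at 9.83 in muscle and 9.62 (p = 0.00403, FDR = 0.0784) at 20.4 in bone in the authors' deposited tables. Of 8 other HSP70 and HSP110 genes, Hspa12b had 8.16 (p = 0.0108) at 14.8 in muscle, where it had no FDR, and Hspa13 had 6.58 (p = 0.0366, FDR = 0.105) at 2.33 in bone in the authors' deposited tables. Of the small heat shock protein genes, Cryab, which encodes alpha-B crystallin, had 0.52 (p = 0.205) at 271 in muscle and 9.82 (p = 0.00259, FDR = 0.0784) at 23.8 in bone in the authors' deposited tables. Its relative Hspb7 had -7.04 (p = 0.0278) at 10.8 in that tissue, per the authors' deposited table. The list of 9, of which 6 had a p in each tissue, thus had 2 higher and 2 lower genes at p under 0.05 in bone and none in muscle.

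Other folding machines were measured in the same way. Of 18 mitochondrial chaperone and protease genes, 1 was higher and 2 lower at p under 0.05 in muscle. In bone 16 of them had a p, and 7 were higher and none lower, beside 28.8% higher over all bone genes. Hspa9, the HSP70 of the mitochondrion that works upstream of HSP60, had 0.17 (p = 0.801) at 84.1 in muscle and 8.28 (p = 0.00863, FDR = 0.0784) at 8.33 in bone in the authors' deposited tables. Clpx, a subunit of a matrix protease, had -8.55 (p = 0.00490) at 17.3 in muscle in the authors' deposited table, with no FDR. Of 14 genes of the cytosolic chaperonin TRiC and prefoldin, none reached p 0.05 in muscle (median 0.03) and 4 were higher in bone (median 1.98). Cct2, a chaperonin subunit, had 10.76 (p = 0.000975, FDR = 0.0784) at 48.7 there, per the authors' deposited table.

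**Figure D5:**
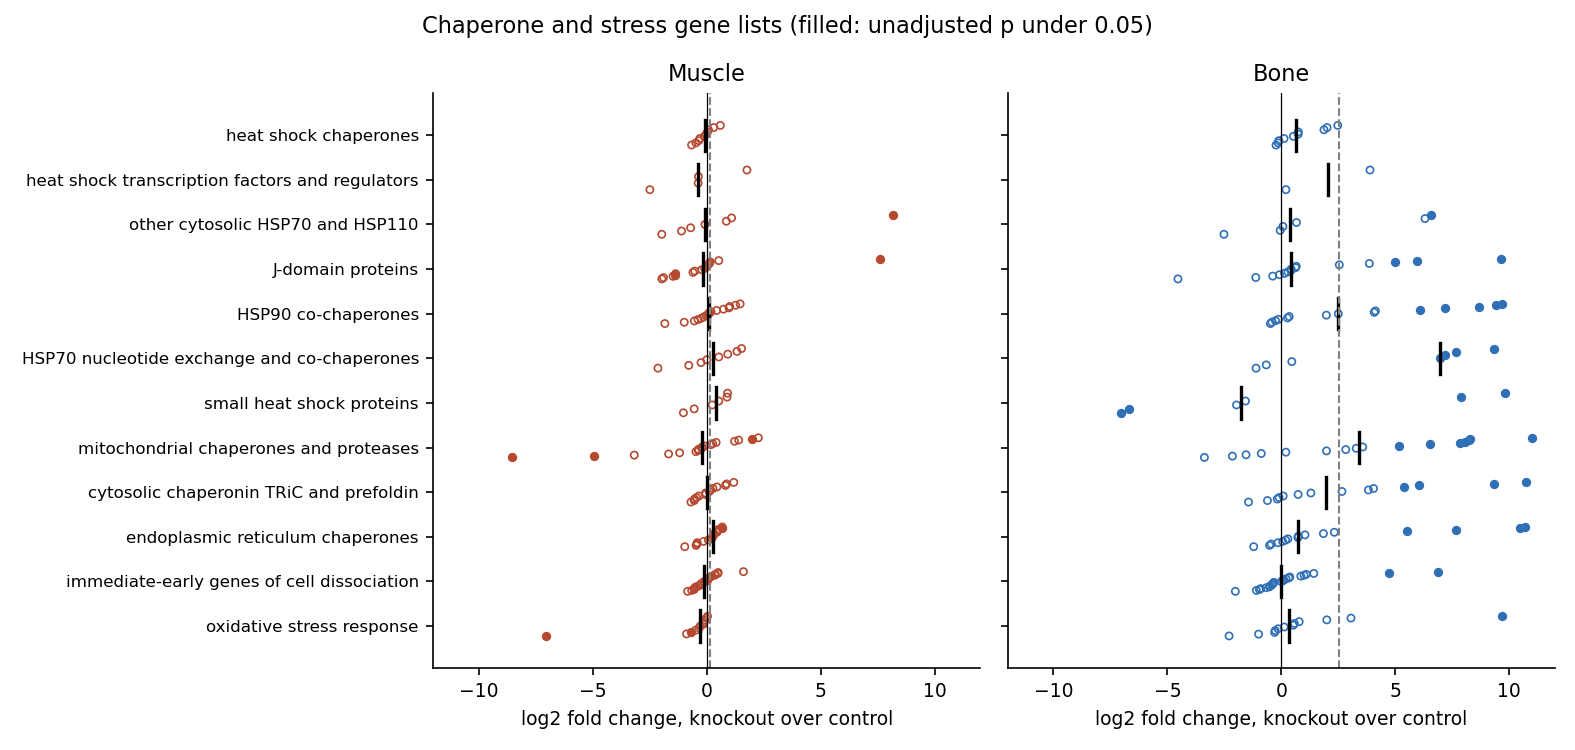
Log2 fold change of knockout over control for the members and the 11 lists in muscle (left) and bone (right), with 1 point per gene with a p, filled where the unadjusted p is under 0.05, and a black bar at each list's median; dashed lines are the medians of all genes. None of the 10 members, in the top line of each panel, is filled, and the bone panel holds 33 filled list genes above 0 and 2 below.

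Stress lists that border on the heat shock response were also described. Of 23 immediate-early genes, which respond within minutes to tissue digestion, none reached p 0.05 in muscle, with a median of -0.12. Egr1 had -0.48 (p = 0.0784) at 3706 and Jun -0.67 (p = 0.0547) at 1150 in muscle in the authors' deposited table. In bone 2 were higher, and the list's median was 0.00. Of 16 endoplasmic reticulum chaperone genes, 1 was higher in muscle at p under 0.05, Serpinh1, the collagen chaperone HSP47, at 0.65 (p = 0.0320, FDR = 0.713) in the authors' deposited table. In bone 4 were higher, with a median of 0.74. Of 11 oxidative stress genes with a p in muscle, 10 were negative, beside 53.5% positive over all muscle genes with a p. Among the 10, p was under 0.05 for 2 genes, Mt2 at -0.70 (p = 0.0202, FDR = 0.584) and Nqo1 at -7.05 (p = 0.0277, no FDR) in the authors' deposited table. In bone 7 of 12 were positive and 5 negative, with a median of 0.33, and 1 was higher at p under 0.05.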

How the data were processed

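PDGFRα+ cells from muscle and bone were profiled by QuantSeq, which sequences the 3' ends of mRNA, per the labels' protocols. The submitters' processing notes name GRCm38 and mm10. The names of the aligner, read counter and statistical test were not given in the sources used here. Per the file headers, each table holds log2 fold changes, p-values and FDR p-values that the authors computed. The larger group mean and the signed fold change are scores taken from the deposited tables. Another 48 columns give single libraries under names that match no label; they were not used, so count tests and a search for genes of like pattern were not run. Positions in the files equal those of GRCm38 for none of the 10 members, although the gene lengths do, so positions were taken from GENCODE M21 by Ensembl ID (25600 of 25655 genes matched).

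Calls used a deposited FDR under 0.05, which was adjusted over the genes of a table that hold an FDR. Standard errors were derived from each p by a normal approximation (scipy 1.17.1, pandas 2.3.3, Python 3.11.15), and the steps were tested on simulated data. All 10 members are named, with Esr1, Pdgfra and, from each list, genes among the up to 4 of smallest p in a tissue; the other gene names, such as markers and overlapping genes, were chosen after their values were seen. The members and lists were chosen with earlier results of these data known. Alternatives were other adjustments, a group mean of at least 10, leaving out Hspa1a and Hspa1b, and centring on genes of like level. One marker gene is not reported here.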

Additional observations from a re-analysis of the deposited data

How the results depend on the processing

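The count of members called stayed at 0 in each tissue under all 5 alternatives: FDR 0.1, the deposited Bonferroni p, an unadjusted p of 0.05, and adjustment over every gene with a p or over genes with a group mean of at least 10. Over these adjustments, the members' adjusted p ran from 0.501 to 1.00 in muscle and from 0.492 to 0.995 in bone. The members' smallest unadjusted deposited p was 0.0960 in muscle and 0.287 in bone. An adjustment cannot lower a p, so the adjusted rules at 0.05 could not have called a member and are not separate checks. The bone counts of all genes moved more: 3 genes passed when adjusted over every gene with a p and 713 of 5063 when adjusted over those with a group mean of at least 10, with 0 members in each. In muscle these counts were 6 and 9. The members' median in bone was 0.63, 0.53 with a group mean of at least 10, 0.32 without Hspa1a and Hspa1b, and 0.00389 after subtracting the median of genes of like level; the last 2 moved it by over 1.5 times, and the cause was not tested. The subtracted values behind the last of these medians ran from -4.71 to 2.06 across the members. In muscle the members' median stayed at -0.07. The tissue difference passed for 0 members under both adjustments, while 19 of 4157 genes passed over those with a group mean of at least 10 in both tissues. For the members this was fixed beforehand, since 0 of them had an unadjusted p under 0.05 for that difference. Tests on counts, their normalization and filters, leaving out replicates and leaving out the controls of other genotype were not run, since no count column could be tied to a sample. No paired analysis was possible because the columns carry no replicate number. Depth per sample is unknown here, and the implied intervals set what could be seen.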
